A study of Homo sapiens with 9 samples.

Results

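The C/EBP genes followed here were the 6 genes of 60623 in the expression tables whose symbol is CEBPA, CEBPB, CEBPD, CEBPE, CEBPG or CEBPZ, and each symbol occurred once. Their mRNA was measured by RNA-seq in U937, a human monocytic cell line, in 3 stable lines made with a doxycycline-inducible retroviral vector. One line carried the empty vector (genotype WT in the labels), one carried HA-tagged AML1-ETO, the RUNX1-RUNX1T1 fusion protein of acute myeloid leukemia, and one carried HA-tagged ETO2-GLIS2, the CBFA2T3-GLIS2 fusion protein of childhood megakaryoblastic leukemia. All 3 lines received 5 μg/ml doxycycline and were collected at 0, 12 and 48 h, so that the empty vector line shared the drug with the fusion lines. Each fusion line was grown from a single cell and each condition was 1 library. The 3 lines are called the control cells, the AML1-ETO clone and the ETO2-GLIS2 clone below. An effect of the fusion protein and a property of the clone cannot be told apart, and no value has a replicate error.

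CCAAT/enhancer-binding proteins bind DNA as dimers through a basic region and a leucine zipper (bZIP), and family members pair with each other and with other bZIP proteins. C/EBPα is required for commitment to granulocytes and monocytes, and C/EBPβ acts in monocytes, macrophages and emergency granulopoiesis. C/EBPδ belongs to the acute phase response, C/EBPε to late granulocyte maturation, and C/EBPγ, which lacks a typical activation domain, pairs with ATF4 in the amino acid response. CEBPZ carries the family name without a bZIP domain, and its product is the relative of yeast Noc1, a ribosome assembly factor. The long and short protein forms of C/EBPα and of C/EBPβ come from one mRNA each, so the tables do not separate them.

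Levels are given as FPKM, fragments per kilobase of exon scaled to a library total of reads, which can be compared between genes because it is per length. The library totals recovered from the steps in the values were 15136399 to 18443641 reads. Each level has an exact 95% Poisson interval and each log2 fold change an exact 95% Clopper-Pearson interval computed from the recovered reads. Both cover counting error only, since without molecular identifiers PCR reads cannot be counted as separate molecules, and the spread between cultures is unknown. "Rose" and "fell" are used for a gene that was more than 2-fold apart between the libraries compared, with a mean of at least 1 FPKM over both, and no test stands behind these words. In cultures measured in bulk, fewer cells of a type and less RNA per cell cannot be told apart.

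The transgenes followed the labels. RUNX1T1, the ETO part of AML1-ETO, was at 0.512 FPKM in the AML1-ETO clone before doxycycline, 22.2 at 12 h and 28.7 at 48 h, and at 0.0240 or lower in the other lines. GLIS2 was at 2.39, 6.79 and 8.85 FPKM over time in the ETO2-GLIS2 clone, where 2.47 to 5.60 FPKM was measured in the other lines. Of 11 monocytic markers, 6 were at 1 FPKM or more in every library and 8 in at least 1, with a summed level between 267 and 1820 FPKM. CD14 was at 0.0802 FPKM or lower in all libraries. Of 10 markers of other cell types, 9 stayed at 0.270 FPKM or lower in all libraries.

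RefSeq promoter windows were found for 5 members. The 120-base stretches of 4 are printed because their genes went different ways over time in the AML1-ETO clone. CEBPA fell, CEBPB fell at 12 h, and CEBPG did not pass 2-fold. CEBPE rose at 48 h, as it did in control cells. Each line holds the bases just before an annotated transcription start on GRCh38.p14, 5′ to 3′ on the gene's own strand. Capitals mark TATAAA in CEBPA (chr19:33302535-33302654, minus strand) and in CEBPB (chr20:50190710-50190829, plus strand, before the downstream of its annotated starts). They mark GAGGAA, a core recognised by PU.1, in CEBPE (chr14:23119256-23119375, minus strand) and CCAAT, which reads ATTGG on this strand, in CEBPG (chr19:33373589-33373708, plus strand).
CEBPA: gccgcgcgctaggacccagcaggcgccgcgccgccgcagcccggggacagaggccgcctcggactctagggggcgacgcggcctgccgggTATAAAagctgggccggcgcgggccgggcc
CEBPB: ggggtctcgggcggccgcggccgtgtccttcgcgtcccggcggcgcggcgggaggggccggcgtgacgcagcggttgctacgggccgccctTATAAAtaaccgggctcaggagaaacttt
CEBPE: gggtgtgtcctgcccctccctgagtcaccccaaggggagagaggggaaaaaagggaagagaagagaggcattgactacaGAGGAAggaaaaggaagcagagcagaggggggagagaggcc
CEBPG: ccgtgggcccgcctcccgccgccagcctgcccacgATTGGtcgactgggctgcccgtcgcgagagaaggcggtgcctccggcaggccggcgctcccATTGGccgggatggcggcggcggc

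Motifs were searched on both strands of windows running from 250 bases before to 50 after each start. TATAAA is present in 11.5% of all 35116 such windows, GAGGAA in 27.9% and CCAAT in 34.6%. Among the members TATAAA was found for CEBPA and CEBPB, GAGGAA for CEBPE and CEBPZ, and CCAAT for CEBPB and CEBPG. None of the 7 member windows held the RUNX letters TGTGGT or TGCGGT, the C/EBP letters TTGCNNAA or the GLIS letters TGGGGGGT, which occur in 13.1%, 7.29%, 10.5% and 1.47% of all windows. These counts describe letters in short windows and say nothing about binding elsewhere. The CEBPA window was 80.7% G or C, those of CEBPG 77.3% and 79.7%, and those of CEBPB 77% and 76.7%. CEBPZ was at 62.7% and CEBPE at 57.7%, with a median of 58.7% over all windows. CEBPA and CEBPG are neighbours on chromosome 19, 71.2 kb apart on opposite strands.

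CEBPA (ENSG00000245848, chr19:33299934-33302534 on GRCh38.p14) had the widest range of the family. In control cells its level was 61.0 FPKM at 0 h, 71.7 at 12 h and 82.9 at 48 h. The AML1-ETO clone had 98.5, 37.5 and 6.62 FPKM at these times, and the ETO2-GLIS2 clone 49.2, 27.0 and 24.5 FPKM. The 9 levels were 14.9-fold apart from lowest to highest, and all 8 pairs of neighbours in the order of levels were separated by more than counting error. The highest and the lowest library both belonged to the AML1-ETO clone, at 0 h and at 48 h.

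Against its own 0 h library, CEBPA in the AML1-ETO clone fell by 1.39 on the log2 scale at 12 h (95% interval -1.48 to -1.31) and by 3.89 at 48 h (-4.08 to -3.71). At 48 h this was one of the lowest values in the table, with 0.956% of the tested genes lower. For the ETO2-GLIS2 clone the value was -0.86 at 12 h (-0.96 to -0.76), and at 48 h CEBPA fell by 1.0 (-1.11 to -0.90), just past 2-fold, with 2.48% of the tested genes lower. A pseudocount of 1 FPKM in place of 0.01 brought the latter value to -0.98, short of 2-fold. In control cells the log2 fold change was 0.23 at 12 h (0.16 to 0.31) and 0.44 at 48 h (0.37 to 0.52). The time courses also differed in shape: from 12 to 48 h CEBPA fell by a further 2.50 on the log2 scale in the AML1-ETO clone (-2.70 to -2.31), while the ETO2-GLIS2 clone changed by -0.14 (-0.26 to -0.02).

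The starting levels were not equal. Before doxycycline, CEBPA was 0.69 higher on the log2 scale in the AML1-ETO clone than in control cells (0.62 to 0.76) and 0.31 lower in the ETO2-GLIS2 clone (-0.39 to -0.23). Set against the empty vector library of the same time, CEBPA in the AML1-ETO clone was at -0.94 on the log2 scale at 12 h (-1.03 to -0.85) and at -3.65 at 48 h (-3.83 to -3.47). For the ETO2-GLIS2 clone the same differences were -1.41 at 12 h (-1.50 to -1.31) and -1.76 at 48 h (-1.86 to -1.66). Against the shared control, therefore, CEBPA was lower in the ETO2-GLIS2 clone than in the AML1-ETO clone at 12 h, with 27.0 and 37.5 FPKM, and the order was turned at 48 h, with 24.5 and 6.62 FPKM. The 2 sets of differences share the empty vector libraries.

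**Figure D1:**
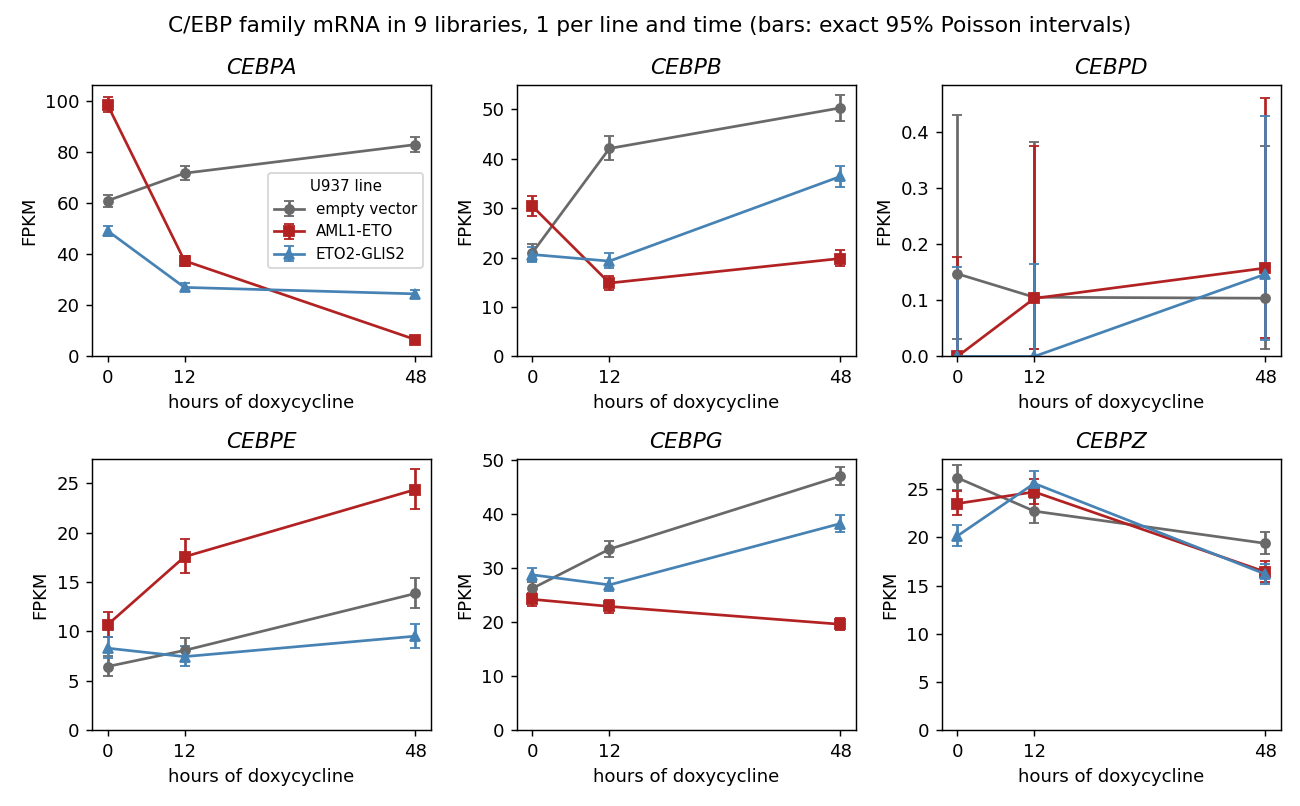
Level of each C/EBP gene in FPKM (y axis, a separate scale per panel) against hours of doxycycline (x axis) in the control cells (empty vector), the AML1-ETO clone and the ETO2-GLIS2 clone, with 1 library per point and exact 95% Poisson intervals as bars. CEBPA went from 98.5 to 6.62 FPKM in the AML1-ETO clone and CEBPE from 10.7 to 24.4 FPKM, whereas CEBPD stayed at 0.157 FPKM or lower in all libraries.

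CEBPB (ENSG00000172216, chr20:50190583-50192690) rose in control cells, from 21.0 to 42.1 and 50.3 FPKM. In the AML1-ETO clone its level was 30.4 FPKM at 0 h, 14.9 at 12 h and 19.8 at 48 h, and in the ETO2-GLIS2 clone it was 20.6, 19.3 and 36.4 FPKM. Thus the lowest CEBPB level of the AML1-ETO clone was at 12 h and not at 48 h, unlike CEBPA. The log2 fold change in that line was -1.03 at 12 h (-1.20 to -0.86) and -0.62 at 48 h (-0.77 to -0.46). In the ETO2-GLIS2 clone CEBPB was at -0.10 at 12 h (-0.25 to 0.06) and 0.82 at 48 h (0.68 to 0.96), short of 2-fold, and in control cells it rose by 1.0 (0.86 to 1.14) and 1.26 (1.12 to 1.4). The 12 h rise in control cells lay on the 2-fold line and was 0.87 after rescaling of the libraries, and with a pseudocount of 1 FPKM the 12 h value with AML1-ETO was -0.98, short of 2-fold. At 48 h the ETO2-GLIS2 clone was above its own start but 0.47 below control cells on the log2 scale (-0.58 to -0.35). The direction for ETO2-GLIS2 at 48 h thus depended on the reference.

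CEBPE (ENSG00000092067, chr14:23117306-23119255) was the one member that rose within the AML1-ETO clone. Its level there was 10.7 FPKM at 0 h, 17.6 at 12 h and 24.4 at 48 h, the highest of the 9 libraries. In control cells it was 6.45, 8.08 and 13.8 FPKM, and in the ETO2-GLIS2 clone 8.30, 7.45 and 9.52 FPKM. Against 0 h, the 48 h log2 value was 1.19 in the AML1-ETO clone (0.98 to 1.4) and 1.10 in control cells (0.83 to 1.38), a difference of 0.09. These intervals overlap, and after rescaling of the libraries the empty vector value was 0.97, short of 2-fold, as it was with a pseudocount of 1 FPKM (0.99). The AML1-ETO clone was above the others in CEBPE level at each time, and it exceeded control cells by 0.73 on the log2 scale at 0 h (0.44 to 1.02), by 1.12 at 12 h (0.87 to 1.37) and by 0.82 at 48 h (0.62 to 1.02). The 48 h value of the ETO2-GLIS2 clone was 0.20 (-0.07 to 0.46). From the AML1-ETO clone at 0 h (10.7 FPKM) down to control cells at 0 h (6.45 FPKM), no gap between neighbours in the order of levels exceeded counting error. Libraries farther apart in that order did differ, since the ETO2-GLIS2 clone was 0.35 higher at 48 h than at 12 h (0.08 to 0.63).

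CEBPG (ENSG00000153879, chr19:33373709-33382686) was at 26.3, 33.5 and 47.0 FPKM in control cells at 0, 12 and 48 h, with a log2 fold change of 0.84 at 48 h (0.75 to 0.93), short of 2-fold. The AML1-ETO clone had 24.2, 22.9 and 19.6 FPKM, with -0.30 at 48 h (-0.41 to -0.20). The ETO2-GLIS2 clone had 28.8, 26.9 and 38.3 FPKM, with 0.41 at 48 h (0.33 to 0.49). Within a line no change of CEBPG passed 2-fold, yet at 48 h its level in the AML1-ETO clone was 1.26 lower on the log2 scale than in control cells (-1.36 to -1.16). At 0 h the same difference had been -0.12 (-0.21 to -0.02).

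CEBPZ (ENSG00000115816, chr2:37201612-37231596), the ribosome assembly factor, varied least, 1.62-fold over the 9 libraries. Its level was 26.2, 22.7 and 19.4 FPKM in control cells, 23.5, 24.7 and 16.4 in the AML1-ETO clone, and 20.1, 25.6 and 16.2 in the ETO2-GLIS2 clone. At 48 h it was below 0 h in all 3 lines, with log2 fold changes of -0.43 (-0.55 to -0.32), -0.52 (-0.64 to -0.39) and -0.31 (-0.44 to -0.19), none past 2-fold.

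CEBPD (ENSG00000221869, chromosome 8) was not detected above the floor of 3 reads. The tables list it at 0.147, 0.106 and 0.104 FPKM in control cells, at 0, 0.104 and 0.157 in the AML1-ETO clone, and at 0, 0 and 0.146 in the ETO2-GLIS2 clone, or 0 to 3 reads a library. A level up to 0.158 FPKM is what 3 reads amount to in the shallowest library, and no fold change is given. No exon of another gene overlaps it in the annotation used.

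**Figure D2:**
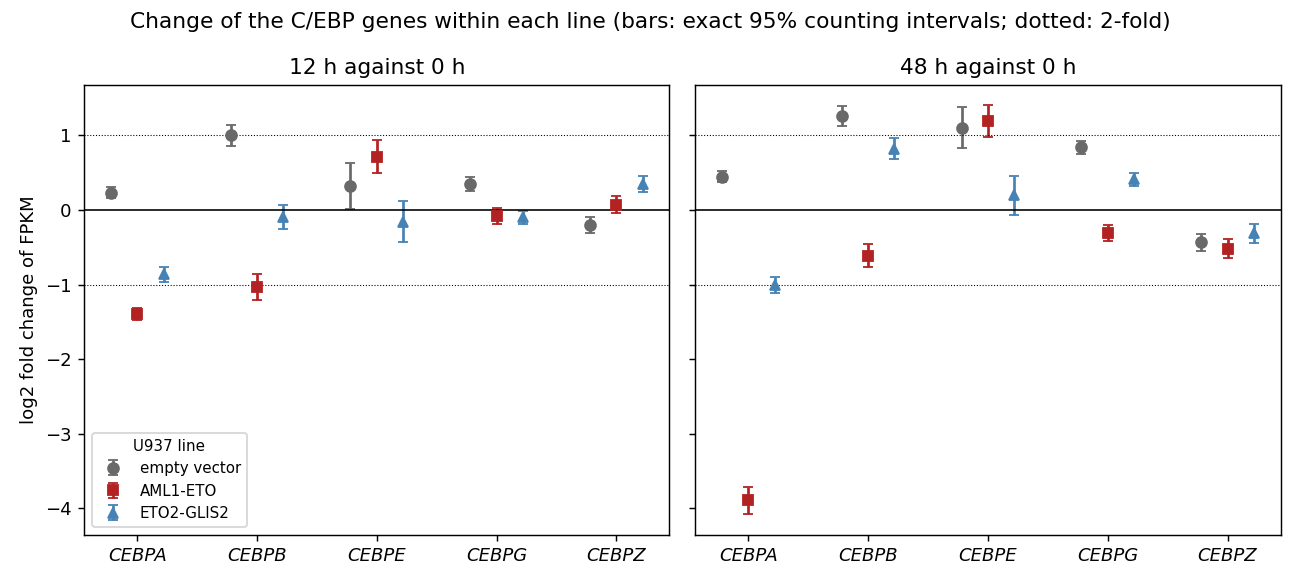
Log2 fold change of FPKM (y axis) of 5 C/EBP genes at 12 h (left) and 48 h (right) against 0 h of the same line, with 1 library per condition and exact 95% counting intervals as bars; dotted lines mark 2-fold. CEBPA at 48 h in the AML1-ETO clone, at -3.89, lies apart from all other points, while CEBPZ stays between -0.52 and 0.35.

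Of the 6 members, 5 had a mean of at least 1 FPKM in every comparison. In control cells, 1 (CEBPB) rose at 12 h and 2 (CEBPB and CEBPE) rose at 48 h, where 5.64% and 8.00% of all tested genes rose, and none fell, where 1.88% and 2.99% of all tested genes fell. In the AML1-ETO clone, none rose and 2 (CEBPA and CEBPB) fell at 12 h, beside 6.57% and 2.39% of all tested genes. At 48 h, 1 (CEBPE) rose and 1 (CEBPA) fell, beside 17.3% and 11.3%. No member of the ETO2-GLIS2 clone passed 2-fold at 12 h, beside 3.03% of tested genes higher and 1.46% lower, and at 48 h none rose and CEBPA fell, beside 10.8% and 2.54%.

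Against the empty vector library of the same time, CEBPE was higher and CEBPB lower in the AML1-ETO clone at 12 h, beside 4.40% and 4.37% of all tested genes. At 48 h none was higher and 3 (CEBPA, CEBPB and CEBPG) were lower, beside 11.8% and 11.7%. For the ETO2-GLIS2 clone none was higher and 2 (CEBPA and CEBPB) were lower at 12 h, beside 2.57% and 4.36%, and none was higher and CEBPA was lower at 48 h, beside 4.15% and 2.53%. Over all tested genes at 48 h, 930 rose and 347 fell in control cells, and 686 and 474 after rescaling of the libraries by median ratios. With AML1-ETO 2077 rose and 1364 fell, and 1647 and 1631 after rescaling. Rescaling lowers every log2 fold change against 0 h by 0.10 to 0.15, and the median of all tested genes before it was 0.11 to 0.22. With 5 genes a single call amounts to a large share, so these counts say no more about the family than the genes named.

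The FPKM of the 5 bZIP members were summed to describe the pool of C/EBP mRNA. The sum was 115, 156 and 194 FPKM in control cells at 0, 12 and 48 h. It was 164, 92.9 and 70.6 FPKM in the AML1-ETO clone, and 107, 80.7 and 109 FPKM in the ETO2-GLIS2 clone. The ETO2-GLIS2 clone was thus near its starting sum at 48 h (a log2 difference of 0.03), although rescaling of the libraries turned the direction, with 113 FPKM at 0 h and 105 at 48 h.

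CEBPA made up 53.1% of the sum in control cells at 0 h and 42.7% at 48 h. In the AML1-ETO clone its share went from 60.1% to 40.3% at 12 h and 9.38% at 48 h. With ETO2-GLIS2 it went from 46.0% to 33.5% and 22.5%. At 48 h CEBPE was the largest part in the AML1-ETO clone, with 34.5%, and CEBPG with 35.1% and CEBPB with 33.5% were the largest in the ETO2-GLIS2 clone. This order compares genes of which other transcripts overlap unequal parts, 43.9% of the exon bases of CEBPA and none of CEBPE and CEBPG, and whether reads were lost there was not tested. The ratio of CEBPA to CEBPE was 9.23 in the AML1-ETO clone at 0 h and 0.272 at 48 h, against 9.46 and 5.99 in control cells.

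**Figure D3:**
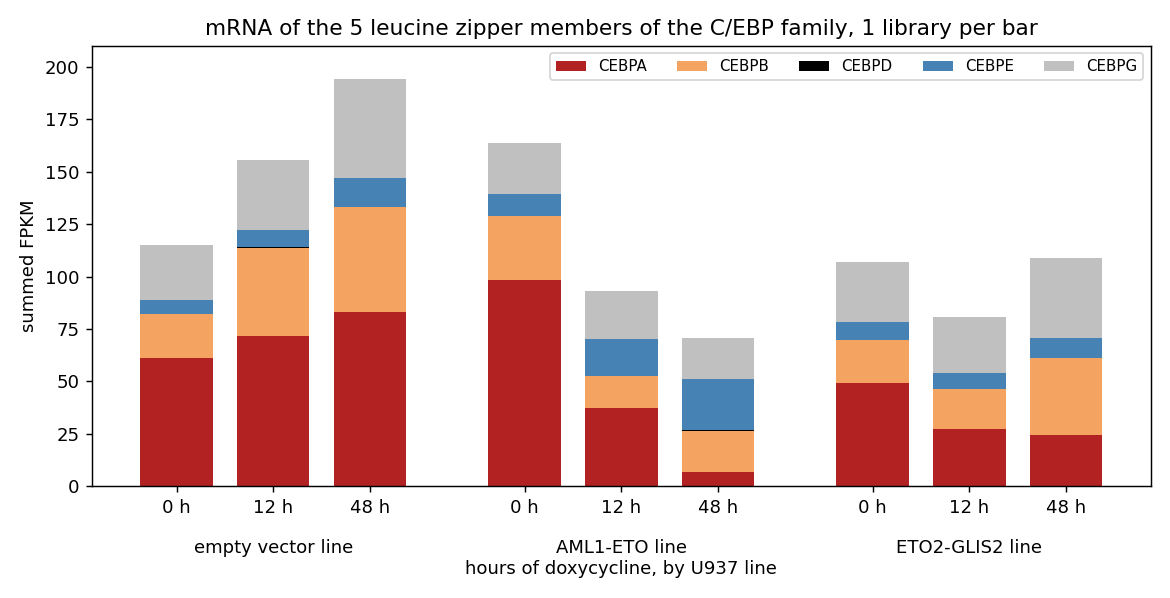
Summed FPKM (y axis) of the 5 bZIP members in each of the 9 libraries (x axis, grouped by line and hours of doxycycline), with the part of each gene in colour. The sum at 48 h was 194 FPKM in control cells, 70.6 in the AML1-ETO clone and 109 in the ETO2-GLIS2 clone, and CEBPA made up 42.7%, 9.38% and 22.5% of it.

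Genes listed as known myeloid targets of C/EBPα were read next to CEBPA. Of 15, 12 had a mean of at least 1 FPKM at 48 h against 0 h in each line. In the AML1-ETO clone 2 rose and 8 fell, with a median log2 fold change of -2.96, while the median of all tested genes was 0.22. In the ETO2-GLIS2 clone 1 rose and 4 fell (median -0.10, all tested genes 0.16), and in control cells 2 rose and 2 fell (median -0.03, all tested genes 0.16). Among all tested genes 17.3% rose and 11.3% fell with AML1-ETO, 10.8% and 2.54% with ETO2-GLIS2, and 8.00% and 2.99% in control cells. The shares of targets that rose with AML1-ETO, 16.7%, and with ETO2-GLIS2, 8.33%, were thus near or below this background. PRTN3, the neutrophil protease proteinase 3, fell in all 3 lines, from 902 to 20.7 FPKM with AML1-ETO, from 327 to 55.9 with ETO2-GLIS2 and from 469 to 81.0 with the empty vector. IL6R, the receptor of interleukin 6, went from 78.2 to 2.27 FPKM in the AML1-ETO clone, from 73.7 to 69.6 in the ETO2-GLIS2 clone and from 81.7 to 73.2 in control cells. ELANE, neutrophil elastase, also fell in all 3 lines. It went from 520 to 66.7 FPKM with AML1-ETO, from 491 to 122 with ETO2-GLIS2 and from 428 to 157 with the empty vector. At 12 h 1 of 12 targets (8.33%) fell in the AML1-ETO clone, beside 2.39% of all tested genes. It was IL6R, which stood at 28.2 FPKM. The list also holds CEBPE and SPI1.

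**Figure D4:**
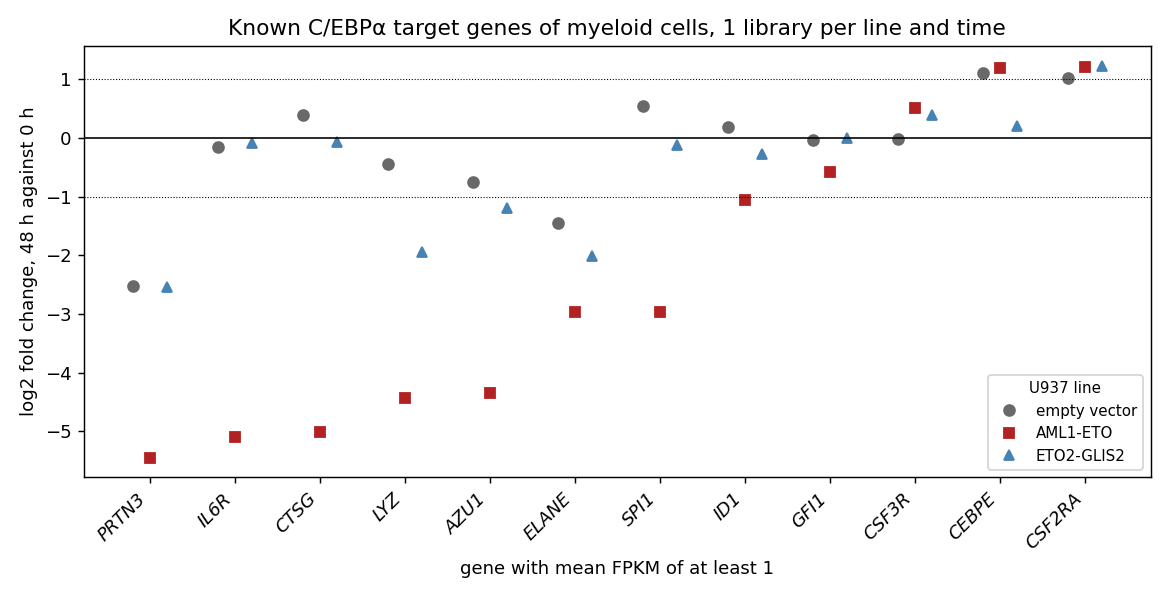
Log2 fold change at 48 h against 0 h (y axis) of the 12 C/EBPα target genes with a mean of at least 1 FPKM (x axis, ordered by the AML1-ETO clone), 1 library per line and time; dotted lines mark 2-fold. In the AML1-ETO clone 8 of the 12 lie below the lower dotted line, against 4 in the ETO2-GLIS2 clone and 2 in control cells. Among all tested genes 11.3%, 2.54% and 2.99% fell in the same order.

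Fewer of the genes tied to C/EBPε, or to C/EBPβ and C/EBPδ, were tested than of the C/EBPα targets. Of 15 specific granule genes, the class tied to C/EBPε, 2 were tested in each line and the others were too low. CHI3L1 fell from 423 to 13.9 FPKM in the AML1-ETO clone and was at 240 and 220 FPKM in the ETO2-GLIS2 clone and 159 and 223 FPKM in control cells. CAMP, the cathelicidin gene, rose from 3.35 to 8.12 FPKM in the ETO2-GLIS2 clone and from 0.743 to 2.09 FPKM in control cells, and was at 1.38 and 0 FPKM in the AML1-ETO clone. PGLYRP1 was at 0.937 and 1.67 FPKM in the AML1-ETO clone, short of 2-fold. Of 20 inflammatory genes tied to C/EBPβ and C/EBPδ, 8 were tested: 4 rose and 2 fell in the AML1-ETO clone at 48 h (median 0.46), 1 rose in the ETO2-GLIS2 clone (median 0.11) and 2 rose in control cells (median 0.51). Among all tested genes 17.3% rose and 11.3% fell with AML1-ETO, 10.8% rose with ETO2-GLIS2 and 8.00% rose in control cells, so the single call of 8 with ETO2-GLIS2, 12.5%, was near this background. CXCL8, a neutrophil attractant, rose from 15.0 to 113 FPKM and TNF fell from 5.57 to 1.10 FPKM in the AML1-ETO clone, where control cells had 5.02 and 5.34 FPKM of CXCL8 and 2.49 and 3.02 FPKM of TNF. PTX3 rose from 2.07 to 4.51 FPKM in the ETO2-GLIS2 clone and from 1.31 to 3.07 FPKM in control cells. SERPINA1 rose from 2.31 to 4.89 FPKM in the AML1-ETO clone. It was at 5.29 and 10.4 FPKM in the ETO2-GLIS2 clone and at 3.89 and 6.07 FPKM in control cells, both short of 2-fold.

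The amino acid response, in which C/EBPγ pairs with ATF4, was read from a list of 20 genes. Of the 18 tested, 11 rose in control cells at 48 h (median 1.38), 16 rose in the ETO2-GLIS2 clone (median 1.57), and 12 rose and 1 fell in the AML1-ETO clone (median 1.66), beside 8.00%, 10.8% and 17.3% of all tested genes that rose. The single fall in the AML1-ETO clone, 5.56%, was below the 11.3% of all tested genes that fell there. The gene that fell was GCLM, a subunit of the enzyme that starts glutathione synthesis, from 7.24 to 1.83 FPKM, named here after its values were seen. SLC7A11, the cystine transporter, rose from 2.72 to 68.9 FPKM with AML1-ETO, from 3.13 to 18.9 with ETO2-GLIS2 and from 2.81 to 13.1 with the empty vector. CHAC1, a glutathione-degrading enzyme, rose from 1.18 to 8.78, from 1.30 to 8.67 and from 1.65 to 12.0 FPKM in the same order. DDIT4, an inhibitor of mTORC1 signalling, rose from 3.17 to 15.9 FPKM with AML1-ETO, from 3.14 to 19.97 with ETO2-GLIS2 and from 1.77 to 18.7 with the empty vector. ATF4 itself rose from 86.7 to 312 FPKM with AML1-ETO, from 86.8 to 217 with ETO2-GLIS2 and from 109 to 249 with the empty vector.

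Partners of the C/EBP proteins outside the family were read from a list of 19 bZIP genes, of which 16 were tested in the AML1-ETO clone and control cells and 17 in the ETO2-GLIS2 clone. At 48 h 6 rose and 4 fell in the AML1-ETO clone (median 0.26), 6 rose and 2 fell in the ETO2-GLIS2 clone (median 0.24), and 5 rose and 3 fell in control cells (median 0.38). Among all tested genes 17.3% rose and 11.3% fell with AML1-ETO (median 0.22), 10.8% and 2.54% with ETO2-GLIS2 (median 0.16), and 8.00% and 2.99% in control cells (median 0.16). DDIT3, which encodes CHOP, a partner that blocks DNA binding by C/EBP proteins, rose from 1.20 to 7.89 FPKM with AML1-ETO, from 2.65 to 8.00 with ETO2-GLIS2 and from 0.800 to 8.65 with the empty vector. FOS fell from 69.0 to 8.65 FPKM in the ETO2-GLIS2 clone, and from 135 to 13.3 and from 73.1 to 3.98 FPKM in the AML1-ETO clone and control cells. BATF2 rose from 0.214 to 11.9 FPKM and ATF5 from 2.44 to 43.7 FPKM in the AML1-ETO clone, where control cells had 0.109 and 0.392 FPKM of BATF2 and 3.21 and 19.5 FPKM of ATF5.

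Of 15 genes that act on C/EBP genes or proteins, 15 were tested in the AML1-ETO clone, where 2 rose and 4 fell at 48 h (median -0.22). In the ETO2-GLIS2 clone 2 rose and 1 fell of 14 (median 0.29), and in control cells 2 rose of 15 (median 0.11). The 13.3% that rose in the AML1-ETO clone was below the 17.3% of all tested genes, and 26.7% fell beside 11.3%. In the ETO2-GLIS2 clone 14.3% rose beside 10.8%, and in control cells 13.3% beside 8.00%. The 1 gene that fell in the ETO2-GLIS2 clone made up 7.14%, beside 2.54% of all tested genes, and none fell in control cells, beside 2.99%. SPI1, which encodes PU.1, was at 92.6, 53.1 and 11.9 FPKM at 0, 12 and 48 h in the AML1-ETO clone, at 88.0, 76.8 and 80.9 in the ETO2-GLIS2 clone, and at 67.0, 76.9 and 97.3 in control cells. RUNX1, whose first part AML1-ETO shares, was at 17.4 and 16.8 FPKM in the AML1-ETO clone at 0 and 48 h, at 16.6 and 25.3 in the ETO2-GLIS2 clone, and at 19.3 and 26.2 in control cells. The RUNX1 value of the AML1-ETO clone can include reads from the transgene, and the part of RUNX1 itself was not tested. TRIB2, which directs C/EBPα protein to degradation, rose from 7.21 to 20.9 FPKM in the ETO2-GLIS2 clone and was at 7.65 and 14.6 FPKM in the AML1-ETO clone and 8.24 and 13.6 FPKM in control cells, both short of 2-fold. TRIB1, with the same activity, was at 2.30 FPKM or lower in all libraries. TRIB3 rose from 16.6 to 67.7 FPKM with AML1-ETO, from 14.8 to 39.4 with ETO2-GLIS2 and from 17.2 to 52.8 with the empty vector. TRIB3 and DDIT3 are also on the amino acid list.

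Of 20 large subunit assembly factors listed with CEBPZ, none of the 19 tested passed 2-fold at 48 h against 0 h in any line, and their median log2 fold change was -0.11 in the AML1-ETO clone, -0.06 in the ETO2-GLIS2 clone and -0.0024 in control cells. Among all tested genes 17.3% rose and 11.3% fell with AML1-ETO, 10.8% and 2.54% with ETO2-GLIS2, and 8.00% and 2.99% in control cells. The medians at 12 h were 0.57, 0.33 and 0.0050 in the same order. From 12 to 48 h they were -0.65, -0.38 and -0.06. Over that interval 3 fell in the AML1-ETO clone (15.8%, beside 10.2% of all tested genes). FBL, the nucleolar methyltransferase fibrillarin, had the largest value in both fusion lines, -0.91 with AML1-ETO and -0.68 with ETO2-GLIS2. In control cells FBL was at -0.38. GNL3 was at -0.86 in the AML1-ETO clone and NCL at -0.58 in the ETO2-GLIS2 clone, against -0.27 and -0.70 in control cells.

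Transcripts that overlap or adjoin the members can affect their levels, because the library kit does not mark strand. In the annotation used for overlaps, 43.9% of the CEBPA exon bases lie under exons of 2 genes read from the other strand, and both were listed at 0 in all 9 libraries. CEBPB-AS1 covers the 12.6% of CEBPB that is shared, with 3 to 26 reads a library against 422 to 1424 for CEBPB. For CEBPZ 21.6% is shared, in part with CEBPZOS, which had 345 to 848 reads a library against 878 to 1608 for CEBPZ. CD68, a macrophage marker with 81.6% of its exon bases under another gene of its own strand, was listed at 0.0283 FPKM or lower. Whether CEBPA, CEBPB and CEBPZ lost reads over shared bases was not tested. CEBPD, CEBPE and CEBPG share no exon bases, and CEBPA-DT, the divergent transcript beside CEBPA, was at 0.661 FPKM or lower.

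The genes with courses most like each member were sought among 7228 genes with a mean of at least 5 FPKM, by Pearson's r of log2(FPKM + 0.01) over the 9 libraries, which share lines and times and are a description without a test. For CEBPA these were FBXO43 (r = 0.98), RAB40C (0.97) and ORAI3 (0.97), and for CEBPB ZNF800 (0.94), ADGRE5 (0.92) and ARHGEF40 (0.91). For CEBPE they were SNHG29 (0.97), RPL12 (0.97) and RPL36 (0.97), for CEBPG SEMA4C (0.95), SKA1 (0.95) and TRIM8 (0.95), and for CEBPZ FARSA (0.97), ZNF280C (0.96) and COA7 (0.96). Among the members themselves the highest r was 0.82, between CEBPB and CEBPG, and the lowest -0.54, between CEBPA and CEBPE.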

How the data were processed

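RNA-seq of 3 U937 lines at 0, 12 and 48 h of 5 μg/ml doxycycline gave 9 libraries, 1 per condition. Libraries were made with the TruSeq RNA version 2 kit. The authors aligned reads to hg38 with HISAT2 2.0.5, handled them with samtools 1.7, counted them with HTSeq 0.9.1 and deposited FPKM computed with an R script. The annotation release was not given in the sources used here.

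Whole reads were recovered from the FPKM steps for 23852 of 23889 genes above 0 in at least 3 libraries (99.85%), with library totals of 15136399 to 18443641 reads. Recovered reads served only for intervals. The recovery and the fold calls were tested on simulated data. The simulated reads held counting error only, without spread between cultures, so they cannot show how reliable a call from 1 library per condition is. Log2 fold changes were taken on log2(FPKM + 0.01), a scale that understates changes of low genes somewhat and still lets a few reads give them large values. Since FPKM is relative to the library total, a change in a few abundant genes shifts all others. A gene was tested when the mean of both libraries was at least 1 FPKM, and called past 2-fold. With 1 library per condition there is no test and no p-value.

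The members and gene lists were chosen with earlier results of these data known. Named genes were all members, the 2 genes of each list with the largest absolute change at 48 h in each fusion line, SPI1, RUNX1, DDIT3, ATF4, TRIB1 and TRIB2, the 3 genes most like each member, and neighbours with a member's name. Some of the genes that this rule or the marker lists select are not reported here. Exon overlaps were computed from GENCODE on GRCh37, since no annotation of the files' build with exons was used here. Coordinates and promoters are from RefSeq on GRCh38.p14. Alternatives were other pseudocounts and filters, rescaling of the libraries by median ratios, and other references. Python 3.11.15, numpy 2.4.6, pandas 2.3.3, scipy 1.17.1 and matplotlib 3.10.9 were used.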

Additional observations from a re-analysis of the deposited data

Results flagged for a closer look

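CEBPA, CEBPB and CEBPG went opposite ways in a fusion line and in control cells at both 12 and 48 h, and none of these differences was tested, since each condition was 1 library. For CEBPA the log2 fold change at 48 h was lower in the AML1-ETO clone than in control cells, by a difference of -4.34, and lower in the ETO2-GLIS2 clone, by a difference of -1.45. For CEBPB the difference between the AML1-ETO clone and control cells was -1.87. For CEBPG it was -1.14, although neither line passed 2-fold and the 12 h interval of the AML1-ETO clone (-0.18 to 0.02) spans 0. All 4 differences share the empty vector libraries.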

How the results depend on the processing

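No paired analysis was possible because each condition has 1 library with replicate number 1, and leaving out a replicate was not done for the same reason. The empty vector change depends on 1 library per time. Depth limits CEBPD, which stayed at 3 reads or fewer, and widens the intervals of CEBPE. Of 60 member values at 12 h, at 48 h or against control cells, 60 kept their direction with a pseudocount of 1 and 56 their side of 2-fold, and 59 and 58 did so after rescaling of the libraries by median ratios. A pseudocount of 0.1 kept 30 of 30 directions and 29 sides.

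After rescaling, the log2 fold changes at 48 h that moved beyond their counting interval were 0.31 (empty vector) and -1.14 (ETO2-GLIS2) for CEBPA, 0.71 (empty vector), -0.46 (AML1-ETO) and 0.28 (ETO2-GLIS2) for CEBPG, and -0.57, -0.67 and -0.45 in the same order for CEBPZ. The summed FPKM of the bZIP members became 122, 151 and 188 in control cells, 173, 88.4 and 67.0 in the AML1-ETO clone, and 113 at 0 h and 105 at 48 h in the ETO2-GLIS2 clone.

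With the empty vector library at 0 h as reference, the 48 h values in the AML1-ETO clone were -3.20 for CEBPA, -0.084 for CEBPB, 1.92 for CEBPE, -0.42 for CEBPG and -0.67 for CEBPZ, and in the ETO2-GLIS2 clone -1.31 for CEBPA, 0.56 for CEBPE, 0.54 for CEBPG and -0.69 for CEBPZ. With the empty vector change subtracted they were -4.34 for CEBPA, -1.87 for CEBPB, 0.089 for CEBPE, -1.14 for CEBPG and -0.083 for CEBPZ in the AML1-ETO clone, and -1.45, -0.44, -0.90, -0.43 and 0.12 in the ETO2-GLIS2 clone, where CEBPB, CEBPE, CEBPG and CEBPZ changed sign because control cells had moved further in the same direction.

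With a mean of at least 5 FPKM, 282 genes were past 2-fold higher and 114 lower at 48 h in control cells, 758 and 755 in the AML1-ETO clone, and 355 and 127 in the ETO2-GLIS2 clone. Without a filter these counts were 5402 and 3415, 7965 and 4468, and 6541 and 2841. With a pseudocount of 1, 474 and 189 were called in control cells, and 1329 and 680 higher in the AML1-ETO and the ETO2-GLIS2 clone.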
